A study of Homo sapiens with 4 samples.

Results

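The 10 genes described here encode the core of CPSF, the cleavage and polyadenylation specificity factor, and of CstF, the cleavage stimulation factor. They were chosen by gene symbol (CPSF1, CPSF2, CPSF3, CPSF4, FIP1L1, WDR33, SYMPK, CSTF1, CSTF2 and CSTF3), and all 10 had an entry for their own strand among 57428 genes with such an entry. CPSF reads the AAUAAA hexamer near the end of a nascent transcript and cuts the RNA downstream of it. CstF binds the U-rich or GU-rich RNA after the cut site and promotes the cut. Cleavage releases the transcript for polyadenylation and is linked to the release of RNA polymerase II; cells that lack CPSF activity are known to transcribe past gene ends.

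The study measured nascent RNA by Bru-seq in U2OS, a human osteosarcoma line, under raised and ordinary sodium. Bru-seq tags new transcripts with bromouridine, a modified uridine, and recovers them with an antibody. The hypertonic group had 2 libraries from cells in medium with 300 mM sodium, raised with concentrated saline, and the isotonic group had 2 libraries from cells at 150 mM sodium that received the same volume of ordinary saline. All 4 libraries came from cells that stably overexpressed GFP-DCP1a, a decapping cofactor joined to green fluorescent protein, were kept under G418 selection and were labelled with 2 mM bromouridine for 30 min with a chase of 0 hours. How long the cells were exposed, which promoter drove the transgene and whether replicates were separate cultures are not in the labels. P-values thus reflect the variation among these 4 libraries only, and that variation may be technical. In a bulk library, fewer cells making an RNA and less RNA made per cell cannot be told apart.

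The hypertonic libraries (replicates 1 and 2) held 28367788 and 23048409 counts in total, the isotonic libraries 44888307 and 23410787. Hypertonic replicate 1 stood apart in log2 CPM (read counts scaled to library size by edgeR) over 21238 tested genes. It correlated at 0.891 with hypertonic replicate 2 and at 0.887 and 0.889 with the isotonic libraries. The isotonic libraries correlated at 0.972 with each other. Hypertonic replicate 2 correlated at 0.941 and 0.947 with the isotonic libraries, so it was closer to them than to hypertonic replicate 1. The 14 immediate early genes of a list summed to 146 and 50.3 RPKM (reads scaled to gene length and library size, as deposited) in the hypertonic libraries and to 77.8 and 489 RPKM in the isotonic ones, so isotonic replicate 2 was the highest. DCP1A, the overexpressed gene, had 314 and 199 CPM under hypertonic and 283 and 630 CPM under isotonic conditions. Of 6 markers listed for U2OS, VIM, RUNX2, CD44 and LGALS1 were present in every library, COL1A2 had 0 to 2 counts and TWIST1 had 0. The U2OS markers summed to 38.8 and 22.4 RPKM in the hypertonic and 32.5 and 25.8 RPKM in the isotonic libraries, and 6 markers of other lineages to 0.113 and 0.270 RPKM in the hypertonic and 0.174 and 0.0738 RPKM in the isotonic libraries. Among the markers of other lineages, ALB and SOX10 had 0 counts in every library.

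The transcript ends of 8 members are shown for the hexamer that the CPSF protein reads. For these 8 members, 30 bases holding the hexamer (in capitals) are shown from the last 50 bases of a GENCODE 29 transcript on GRCh38. They lie at chr7:99457342-99457371 (plus strand) for CPSF4, chr4:53459639-53459668 (plus strand) for FIP1L1, chr14:92172116-92172145 (plus strand) for CPSF2, chr2:9473070-9473099 (plus strand) for CPSF3, chr19:45815444-45815473 (minus strand) for SYMPK, chr20:56406338-56406367 (plus strand) for CSTF1, chrX:100840889-100840918 (plus strand) for CSTF2 and chr11:33084584-33084613 (minus strand) for CSTF3.
CPSF4: ttttatgaaatggATTAAAgcttgtttttt
FIP1L1: ttcaaaAATAAAaagacagcaatgacttta
CPSF2: caattgtgaAATAAAcagattctgaaggtc
CPSF3: ctaaAATAAAatgcattcgtttctctgggg
SYMPK: aagaAATAAAagatgtgaacttgggcaagt
CSTF1: ctgaAATAAActttatatacaatgataagc
CSTF2: tctgtgacttgaAATAAActttgaacacaa
CSTF3: tcctttaaaaAATAAAaggattcagaaaca
CPSF4 carried ATTAAA and the other 7 shown carried AATAAA, starting 17 to 35 bases before the transcript's end. The transcript of CPSF1, not printed, held neither hexamer in its last 50 bases. In the last 50 bases of 19556 genes, AATAAA was present in 59.7%, ATTAAA without it in 13.4% and neither in 26.9%. Use of the hexamers was not measured.

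No member passed the edgeR test of hypertonic against isotonic libraries at an adjusted p of 0.05, and neither did any other gene (0 of 21238, 0%). At an unadjusted p of 0.05 there were 0 members, against 10.9% of all tested genes (2.01% lower and 8.89% higher). Fitted log2 fold changes of the 10 members were negative for 6 and positive for 4, with a median of -0.24. Medians were 0.04 over all tested genes and -0.33 over 4828 protein-coding genes with mean RPKM of at least 1 (expressed genes from here on). Negative values were fitted for 47.6% of all tested genes and 77.2% of expressed genes. CPSF4, CPSF2, CPSF3, SYMPK and CSTF2 had a mean RPKM under 1 and lie outside the expressed genes, so that set is not matched to the members in level. With scaling by total count the members' median was 0.01 and that of all genes 0.26, and by upper quartile they were -0.06 and 0.23, so the sign of the members' median depends on the scaling. In CPM, both hypertonic values were under the 2 isotonic ones for 4 members, CPSF4, WDR33, CSTF2 and CSTF3. Of all tested genes 17.5% did so, and of expressed genes 38.7%. Both were over the isotonic ones for 3 members, FIP1L1, CPSF2 and CPSF3, where 22.5% of all tested genes and 5.32% of expressed genes did so. These separations depend on the scaling too. In the deposited RPKM the groups overlapped for CPSF4, CSTF2, FIP1L1 and CPSF3, and stayed apart for WDR33, CSTF3 and CPSF2. DESeq2 called 0 members and 3.44% of all tested genes, and limma-voom called 0 genes. CPSF1, CPSF4, FIP1L1, WDR33 and CSTF3 overlap protein-coding genes of the opposite strand, and the labels do not say which libraries were made strand-specific. The sense strand held 88.4 to 93.4% of all counts in the 4 libraries.

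**Figure D1:**
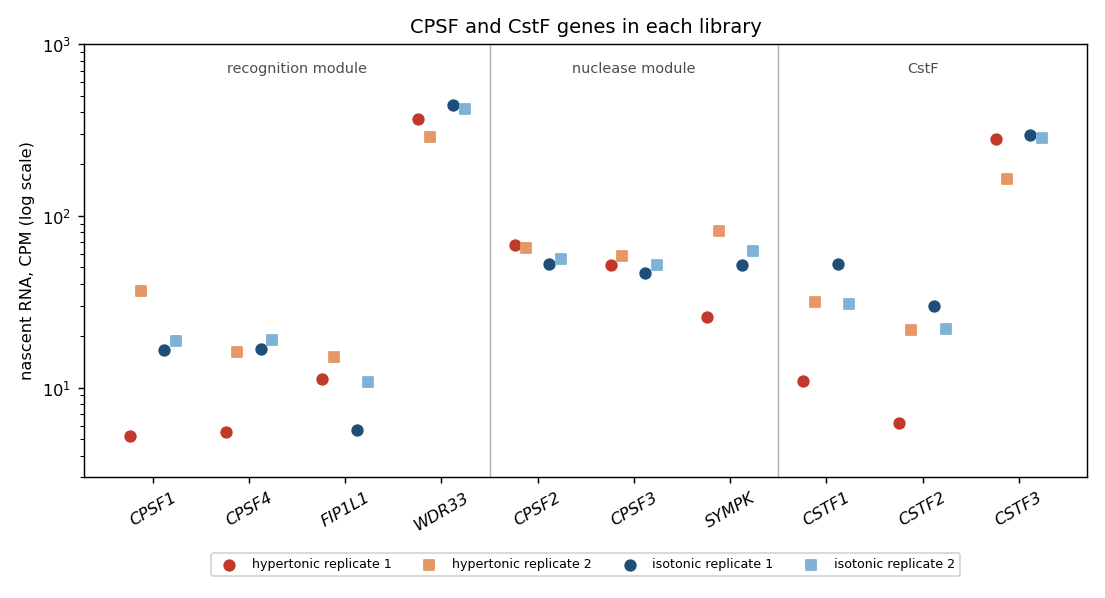
Level of each member in CPM (log axis) in the 2 hypertonic and 2 isotonic libraries, 1 point per library. The hypertonic points are far apart for CPSF1, CPSF4, SYMPK, CSTF1 and CSTF2, while WDR33 and CSTF3 stand highest in every library.

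CPSF1, CPSF4, WDR33 and FIP1L1 form the recognition module of CPSF. Fitted fold changes were positive for 2 of them and negative for 2, and none passed the test. CPSF1 (ENSG00000071894, chromosome 8, 144393229 to 144409349, minus strand), the scaffold that holds the module together, had 5.20 and 36.5 CPM in the hypertonic libraries and 16.5 and 18.6 CPM in the isotonic ones. The isotonic values lay between the hypertonic ones, which differed 7.03-fold. Its log2 fold change was 0.25 ± 0.80 (SE, n = 2 per group; adjusted p = 0.993). Without hypertonic replicate 2 it was -1.76 and passed the test (adjusted p = 0.022), and without hypertonic replicate 1 it was 1.02.

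CPSF4 (ENSG00000160917, chromosome 7, 99438922 to 99457371, plus strand), a zinc finger protein that contacts the AAUAAA hexamer, had 5.49 and 16.2 CPM in the hypertonic libraries and 16.8 and 18.9 CPM in the isotonic ones. Its log2 fold change was -0.72 ± 0.64 (adjusted p = 0.846), -1.70 (adjusted p = 0.0242) without hypertonic replicate 2 and -0.17 without hypertonic replicate 1. Hypertonic replicate 1 was thus low, and hypertonic replicate 2 lay just below the isotonic values. WDR33 (ENSG00000136709, chromosome 2, 127701022 to 127811171, minus strand), the WD repeat protein that binds the hexamer beside CPSF4, had 367 and 287 CPM in the hypertonic libraries and 442 and 419 CPM in the isotonic ones. The groups did not overlap, at a log2 fold change of -0.40 ± 0.39 (adjusted p = 0.878), close to the median of expressed genes.

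FIP1L1 (ENSG00000145216, chromosome 4, 53377645 to 53459668, plus strand), which binds U-rich RNA and recruits poly(A) polymerase, had 11.2 and 15.0 CPM in the hypertonic libraries and 5.69 and 10.8 CPM in the isotonic ones. The groups did not overlap, though hypertonic replicate 1 and isotonic replicate 2 were close, and the log2 fold change was 0.67 ± 0.61 (adjusted p = 0.850). Leaving out isotonic replicate 1 gave 0.24, and leaving out isotonic replicate 2 gave 1.17. These reads come from 1246 bases, 1.52% of the gene's span, because the deposited tables leave out bases shared with AC058822.1, an annotated protein-coding gene on the same strand. FIP1L1 values therefore describe a small part of the gene, and they were left out of comparisons of level. Over the 607728 bases counted for AC058822.1 alone, which begin where FIP1L1 ends, the level was 0.132 and 0.0539 RPKM in the hypertonic and 0.0288 and 0.0312 RPKM in the isotonic libraries. That log2 fold change was 1.70 ± 0.60 (adjusted p = 0.338).

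The nuclease module of CPSF cuts the RNA, also at histone pre-mRNAs, and none of its 3 genes passed the test. CPSF3 (ENSG00000119203, chromosome 2, 9423568 to 9473101, plus strand), the endonuclease, had 51.7 and 58.1 CPM in the hypertonic libraries and 46.2 and 51.6 CPM in the isotonic ones. CPSF2 (ENSG00000165934, chromosome 14, 92121937 to 92172145, plus strand), its catalytically inactive partner, had 67.9 and 65.1 CPM in the hypertonic libraries and 52.3 and 56.4 CPM in the isotonic ones. The hypertonic values were the higher ones for both genes, by less than the standard error, and for CPSF3 hypertonic replicate 1 and isotonic replicate 2 were almost equal. Log2 fold changes were 0.17 ± 0.41 for CPSF3 (adjusted p = 0.989) and 0.29 ± 0.40 for CPSF2 (adjusted p = 0.938). Over the alternative analyses they ranged from 0.06 to 0.40 for CPSF3 and from 0.16 to 0.51 for CPSF2.

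SYMPK (ENSG00000125755, chromosome 19, 45815435 to 45863290, minus strand), the symplekin scaffold that ties the nuclease pair to the rest of the complex, had 25.7 and 81.2 CPM in the hypertonic libraries and 52.0 and 62.1 CPM in the isotonic ones. As for CPSF1, hypertonic replicate 1 was the lowest library and hypertonic replicate 2 the highest. Its log2 fold change was -0.09 ± 0.56 (adjusted p = 0.996). Without hypertonic replicate 2 it was -1.15 and passed the test (adjusted p = 0.0355), without hypertonic replicate 1 it was 0.47, and with total-count scaling it was 0.23.

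The 3 CstF genes all had negative fitted fold changes, with a median of -0.90, and none passed the test. Negative values were also fitted for 77.2% of expressed genes and 47.6% of all tested genes. CSTF1 (ENSG00000101138, chromosome 20, 56392394 to 56406369, plus strand), the WD repeat subunit, had 10.9 and 31.6 CPM in the hypertonic libraries and 52.5 and 30.8 CPM in the isotonic ones. The groups overlapped, since hypertonic replicate 2 and isotonic replicate 2 were alike and isotonic replicate 1 was the highest. CSTF2 (ENSG00000101811, chromosome X, 100820359 to 100840932, plus strand), the subunit that binds GU-rich RNA, had 6.21 and 21.5 CPM in the hypertonic libraries and 29.7 and 22.0 CPM in the isotonic ones. For CSTF2 the groups did not overlap, but hypertonic replicate 2 and isotonic replicate 2 were almost equal. Log2 fold changes were -0.97 ± 0.61 for CSTF1 (adjusted p = 0.664) and -0.90 ± 0.66 for CSTF2 (adjusted p = 0.747). Without hypertonic replicate 2 both passed the test, at -1.94 (adjusted p = 0.0147) and -2.06 (adjusted p = 0.0113). Without hypertonic replicate 1 they were at -0.43 for CSTF1 and -0.30 for CSTF2.

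CSTF3 (ENSG00000176102, chromosome 11, 33084584 to 33161531, minus strand), the dimeric scaffold of CstF, differed from the other CstF genes in which hypertonic library was low. It had 280 and 163 CPM in the hypertonic libraries and 295 and 285 CPM in the isotonic ones. Hypertonic replicate 1 lay near the isotonic values and hypertonic replicate 2 well below them, at a log2 fold change of -0.39 ± 0.42 (adjusted p = 0.895). Leaving out hypertonic replicate 1 gave -0.86, and leaving out hypertonic replicate 2 gave -0.06.

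**Figure D2:**
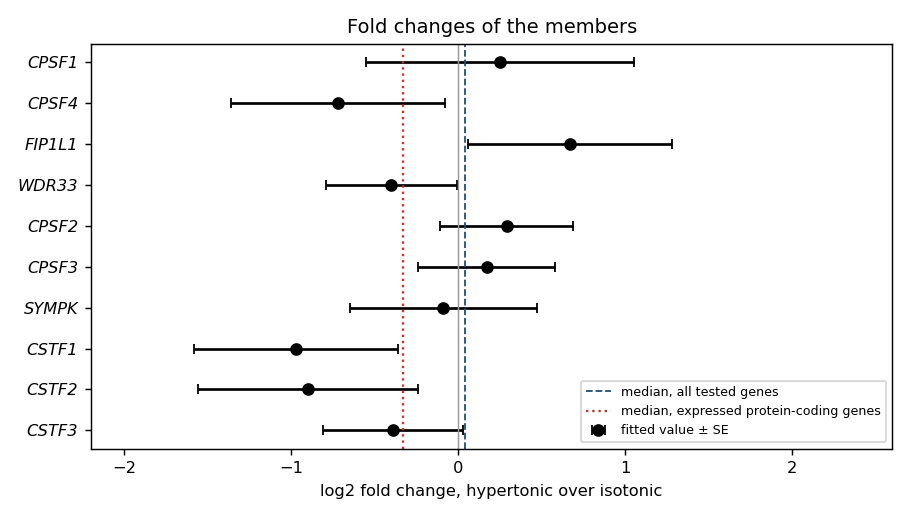
Log2 fold change (hypertonic over isotonic) of each member with its standard error, from edgeR with 2 libraries per group. The bars of CPSF1, CPSF2, CPSF3, SYMPK and CSTF3 cross 0, and CSTF1 and CSTF2 have the lowest values, at -0.97 and -0.90.

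For CPSF1, CPSF4, SYMPK, CSTF1 and CSTF2 the hypertonic replicates lay far apart. The size of the log2 difference between hypertonic replicates had a median of 1.15 over the members and 0.78 over expressed genes. Between isotonic replicates the medians were 0.17 over the members and 0.25 over expressed genes. Relative to the isotonic mean, the members' median was -0.69 in hypertonic replicate 1 and 0.06 in hypertonic replicate 2, against -0.53 and -0.33 for expressed genes. Fitted without hypertonic replicate 2, edgeR called 5 members lower, CPSF1, CPSF4, SYMPK, CSTF1 and CSTF2, where 21.4% of 22940 tested genes were called and 10.3% were called lower. Fitted without hypertonic replicate 1 it called 0 members and 0% of genes. In such a fit the lone hypertonic library is assumed to vary like the isotonic ones.

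The difference between hypertonic replicates moved with the length of the gene. CSTF1, CPSF1, CPSF4 and CSTF2, the 4 members with the shortest spans (14.0, 16.1, 18.4 and 20.6 kb), had log2 differences of 1.53, 2.80, 1.55 and 1.78 for hypertonic replicate 2 minus hypertonic replicate 1. CSTF3 and WDR33, which span 76948 and 110150 bases, stood at -0.78 and -0.35 in the same comparison. CPSF3 and CPSF2, of 49.5 and 50.2 kb, differed by 0.17 and -0.06, while SYMPK, of 47.9 kb, differed by 1.66. Spearman's rho between span and this difference was -0.75 over the 10 members and -0.77 without FIP1L1, and -0.46 over 4828 expressed genes; these points share 2 libraries. Expressed genes of 10 to 20 kb had medians of -1.16 in hypertonic replicate 1 and -0.10 in hypertonic replicate 2, relative to the isotonic mean, and those of 100 to 200 kb had medians of 0.06 and -0.53. The part that span plays in the members' fold changes was not tested.

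**Figure D3:**
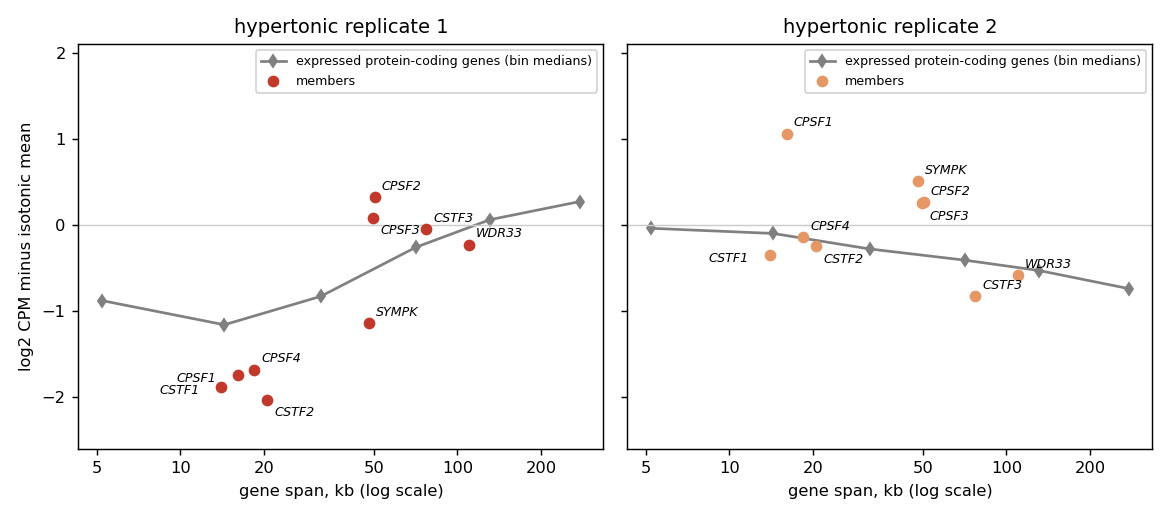
Log2 CPM of each hypertonic library minus the isotonic mean against gene span (log axis), for 9 members (FIP1L1 left out) and, as grey diamonds, the medians of expressed protein-coding genes in 6 span classes. In hypertonic replicate 1 CSTF1, CPSF1, CPSF4 and CSTF2, of 14.0 to 20.6 kb, lie lowest, and in hypertonic replicate 2 CPSF1 and SYMPK lie highest.

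Per length of gene, WDR33 and CSTF3 had the highest mean RPKM in both media, with FIP1L1 left out. Their means were 2.36 and 2.24 in the hypertonic libraries and 3.06 and 2.95 in the isotonic ones. CSTF1, at 1.33 RPKM in the hypertonic libraries and 2.36 RPKM in the isotonic ones, came next. In the isotonic libraries the order went on with CSTF2 (0.988 RPKM), SYMPK (0.929), CPSF1 (0.862), CPSF2 (0.844), CPSF3 (0.770) and CPSF4 (0.753). There, neighbours in the order were separate in both libraries between CSTF1 and CSTF2, between SYMPK and CPSF1 and between CPSF2 and CPSF3, and overlapped elsewhere. In the hypertonic libraries no neighbours in the order were separate.

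RNA from the opposite strand of the members was measured as well, in a fit added after the data had been seen. Antisense RNA over CPSF3 was higher in the hypertonic libraries: it had 35.0 and 10.3 CPM there and 2.40 and 1.96 CPM in the isotonic libraries. The log2 fold change was 3.37 ± 0.83 (edgeR, adjusted p = 0.0139), a 10.3-fold difference, and antisense reads made up 40.4% and 15.0% of the gene's reads in the hypertonic and 4.94% and 3.65% in the isotonic libraries. Across 9827 tested antisense entries 19.4% were called higher, 0.0102% lower, and the median log2 fold change was 1.31, so CPSF3 is 1 of many such entries. The call was lost when the antisense counts were scaled by their own TMM factors (2.00, adjusted p = 0.119), where the median over all entries was 0.10 and 0 entries were called, and without isotonic replicate 1 (3.51, adjusted p = 0.465) or isotonic replicate 2 (3.19, adjusted p = 0.390). It held without hypertonic replicate 1 (2.19, adjusted p = 0.00127) and without hypertonic replicate 2 (3.99, adjusted p = 5.41e-16).

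The gene on that strand past the end of CPSF3 is ADAM17, a membrane protease gene chosen after its values were seen, which ends 15.4 kb beyond it. ADAM17 itself had 165 and 108 CPM under hypertonic and 145 and 169 CPM under isotonic conditions, a log2 fold change of -0.20 ± 0.40 (adjusted p = 0.975). The groups overlapped for ADAM17 and not for the antisense RNA of CPSF3. Of all counts, the sense strand held 88.4% and 90.6% in the hypertonic and 93.4% and 93.4% in the isotonic libraries. The rest was not all antisense, since entries pooled over bases shared by same-strand genes held 3.11 to 3.48% of counts. The part of these shares in the antisense values was not tested.

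Of the other members, CPSF1, WDR33 and CSTF3 had enough antisense reads to be tested, and none passed. CPSF1 had 2.53 and 4.95 antisense CPM under hypertonic and 0.343 and 1.60 CPM under isotonic conditions (log2 fold change 1.98 ± 0.88, adjusted p = 0.116), and its end overlaps that of the opposite gene ADCK5 by 14 bases. WDR33 had 1.23 and 4.32 antisense CPM under hypertonic and 1.18 and 0.516 CPM under isotonic conditions (1.68 ± 0.87, adjusted p = 0.171). For CPSF1, WDR33 and CPSF3 both hypertonic libraries lay above both isotonic ones, as for 62.9% of antisense entries. Without hypertonic replicate 1, CPSF1 (2.39, adjusted p = 0.00332) and WDR33 (2.27, adjusted p = 0.00621) passed. Without hypertonic replicate 2 the values were 1.44 for CPSF1 (adjusted p = 0.105) and 0.49 for WDR33 (adjusted p = 0.649), and with the antisense counts' own TMM factors 0.88 (adjusted p = 0.644) and 0.59 (adjusted p = 0.783). CSTF3, whose opposite strand holds TCP11L1, LINC00294 and CSTF3-AS1, had 31.9 and 20.2 antisense CPM under hypertonic and 19.2 and 21.9 CPM under isotonic conditions (0.34 ± 0.72, adjusted p = 0.752). FIP1L1, CPSF2, SYMPK, CSTF1 and CSTF2 had 0 to 7 antisense counts in any library and were not tested, and CPSF4 has no antisense entry.

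Same-strand genes that begin within 20 kb past a member's end were read as a share of the member's own RPKM. RSPH6A, a radial spoke gene of cilia that begins 90 bases past SYMPK, stood at 74.5% and 20.6% of SYMPK in the hypertonic libraries and at 4.67% and 7.50% in the isotonic ones. CASS4, an adhesion scaffold gene 5.74 kb past CSTF1, stood at 143% and 13.9% of CSTF1 in the hypertonic libraries and at 3.77% and 4.96% in the isotonic ones. Both hypertonic shares lay above both isotonic ones for RSPH6A, CASS4, the pseudogene PIGCP1 after CSTF3 and ZNF789 after CPSF4. They follow 4 of the 6 members with such a neighbour. PIGCP1 had 29 and 3 counts in the hypertonic and 3 and 3 in the isotonic libraries, too few to be tested. The background was 52.8% of 3651 gene pairs, so 4 of 6 is near it. Both hypertonic shares lay below both isotonic ones for 0 of the 6, against 6.27% of pairs.

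RSPH6A itself had 7.86 and 6.84 CPM under hypertonic and 1.01 and 1.91 CPM under isotonic conditions, a log2 fold change of 2.34 ± 0.71. CASS4 had 53.8 and 15.1 CPM under hypertonic and 6.84 and 5.26 CPM under isotonic conditions, a log2 fold change of 2.51 ± 0.69. Neither passed in edgeR (adjusted p = 0.278 for RSPH6A and 0.238 for CASS4), while DESeq2 called both (adjusted p = 0.0206 for RSPH6A and 0.0112 for CASS4). Both also passed in edgeR without hypertonic replicate 2, RSPH6A at 2.45 (adjusted p = 0.0143) and CASS4 at 3.14 (adjusted p = 0.000938), and CASS4 passed with no filter on low counts (2.43, adjusted p = 0.0175). Neither passed without hypertonic replicate 1, where RSPH6A was at 2.22 (adjusted p = 0.101) and CASS4 at 1.28 (adjusted p = 0.145), or in limma-voom (adjusted p = 0.309 for RSPH6A and 0.392 for CASS4). SYMPK and CSTF1, the denominators of these shares, were themselves low in hypertonic replicate 1. IAH1, an esterase gene 556 bases past CPSF3, stood at 98.8% and 79.9% of CPSF3 in the hypertonic and at 94.4% and 60.4% in the isotonic libraries, with a log2 fold change of 0.38 ± 0.55 (adjusted p = 0.946). The groups overlapped there, and for LIMS2 after WDR33, at 6.37% and 20.8% in the hypertonic and 4.62% and 9.41% in the isotonic libraries.

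**Figure D4:**
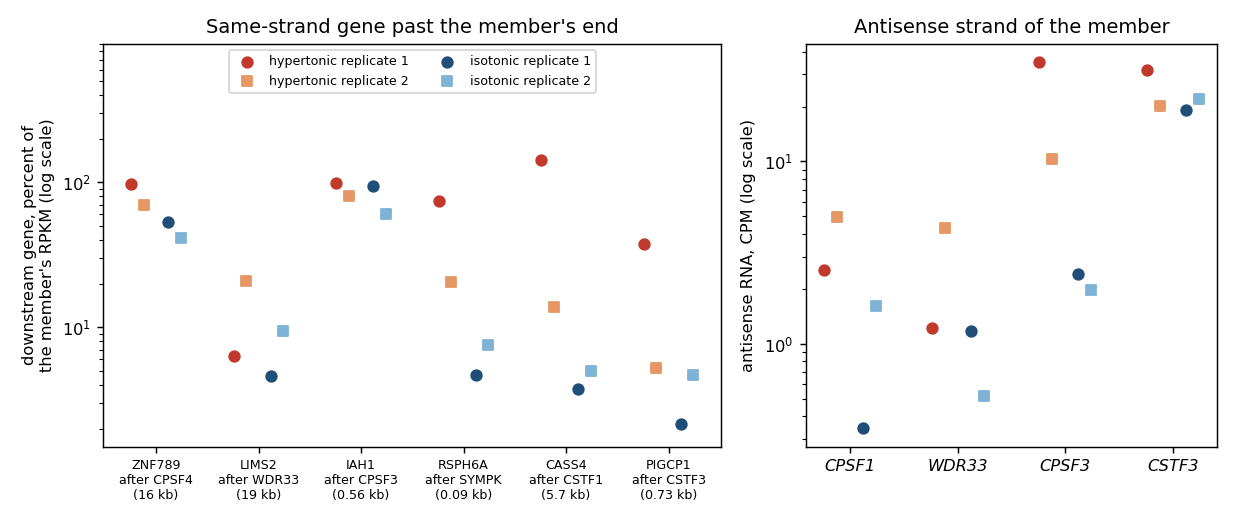
Left, RPKM of the same-strand gene past a member's end as a percentage of the member's RPKM (log axis), and right, antisense CPM over the member (log axis), 1 point per library. RSPH6A, CASS4 and the antisense RNA of CPSF3 are highest in hypertonic replicate 1, at 74.5%, 143% and 35.0 CPM.

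At their starts, 3 members share a promoter region with a gene that runs the other way and lies within 33 bases. CSTF1 begins 33 bases from AURKA, a mitotic kinase gene, whose log2 fold change was -0.44 ± 0.43. CPSF2 begins 19 bases from NDUFB1, a subunit gene of respiratory complex I, at -0.14 ± 0.85, and CPSF3 begins 20 bases from ITGB1BP1, an integrin-binding protein gene, at -0.22 ± 0.55. These 3 partners were chosen by position, outside the rule for named genes, and none passed the test (adjusted p = 0.874 for AURKA, 0.996 for NDUFB1 and 0.989 for ITGB1BP1). The partner and the member had fitted values of opposite sign at CPSF2 and CPSF3, each within its standard error of 0. Farther off, SYMPK begins 698 bases from FOXA3, which also runs the other way. FOXA3 had 1.14 and 1.69 CPM under hypertonic and 0.7357 and 0.7225 CPM under isotonic conditions (0.95 ± 0.74, adjusted p = 0.780 in edgeR). The groups did not overlap in CPM, but these values rest on 27 and 43 counts in the hypertonic and 30 and 14 in the isotonic libraries.

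The promoters of CPSF2, CPSF3 and CSTF1 are shown because each is shared with a neighbour. The windows shown rest on RefSeq starts, which differ from the GENCODE starts used for the distances to neighbours. Each runs from 250 bases before to 50 bases after the RefSeq start on GRCh38.p14, plus strand, at chr14:92121719-92122018 for CPSF2, chr2:9423404-9423703 for CPSF3, chr20:56392129-56392428 for CSTF1; capitals mark the NRF1-type, ETS-type and YY1-type motifs.
CPSF2: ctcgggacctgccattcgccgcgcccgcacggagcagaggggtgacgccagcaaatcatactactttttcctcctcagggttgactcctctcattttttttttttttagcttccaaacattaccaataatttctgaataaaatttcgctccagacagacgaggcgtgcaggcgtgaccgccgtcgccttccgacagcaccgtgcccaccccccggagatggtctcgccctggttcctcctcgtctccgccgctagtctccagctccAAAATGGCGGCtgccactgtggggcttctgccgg
CPSF3: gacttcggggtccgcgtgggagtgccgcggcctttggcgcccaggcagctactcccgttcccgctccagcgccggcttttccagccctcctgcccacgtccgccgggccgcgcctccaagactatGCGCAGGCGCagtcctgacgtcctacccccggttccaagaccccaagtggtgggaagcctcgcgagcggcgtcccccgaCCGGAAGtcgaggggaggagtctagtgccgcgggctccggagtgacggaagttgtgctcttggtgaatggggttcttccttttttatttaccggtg
CSTF1: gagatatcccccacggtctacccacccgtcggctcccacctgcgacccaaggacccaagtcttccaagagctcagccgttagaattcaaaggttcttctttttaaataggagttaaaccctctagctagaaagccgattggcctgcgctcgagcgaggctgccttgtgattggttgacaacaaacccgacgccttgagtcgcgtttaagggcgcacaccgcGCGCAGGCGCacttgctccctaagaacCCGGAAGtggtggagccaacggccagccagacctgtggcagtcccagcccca
Promoters of 9 members were found in RefSeq, and each motif was searched on both strands, with motifs chosen after these promoters had been seen. The NRF1-type motif, which is the first capital stretch of CPSF3 with any base after its A, stood in 5 of the 9 (CPSF3, CPSF4, CSTF1, FIP1L1 and SYMPK), against 5.8% of 34796 promoters. The ETS-type letters CCGGAAG stood in 4 (CPSF3, CSTF1, CSTF2 and CSTF3), against 10.2%, and the YY1-type motif, which is the capital stretch of CPSF2 with any base in the third place, in 3 (CPSF2, SYMPK and WDR33), against 1.4%. The CCAAT box stood in 4 against 34.6%, the GC box GGGCGG in 5 against 44.9% and the TATA box TATAAA in 0 against 11.6%. In the promoters printed, the capital stretches do not overlap each other. Since the motifs were chosen after these promoters had been seen, the shares cannot test for an excess over the background. A match is a run of letters and says nothing here about binding.

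Among the other genes of 3' end formation, 30 of 31 listed were tested and 0 passed in edgeR, against 0% of all genes. At an unadjusted p of 0.05 there were 5 (CPSF6, CPSF7, WDR82, LSM11 and CPSF4L), against 10.9% of all tested genes, and DESeq2 called 0, against 3.44%. Their fitted log2 fold changes were negative for 23 and positive for 7, with a median of -0.38, against -0.33 over expressed genes. The negative share was 76.7%, near the 77.2% of expressed genes and above the 47.6% of all tested genes. Without hypertonic replicate 2, edgeR called 12 of them, 9 lower, where 21.4% of all tested genes were called and 10.3% were called lower. Cleavage factor I, which binds UGUA upstream of the cut site, had its hypertonic CPM under all isotonic CPM for all 3 genes. Of all tested genes 17.5% did so, and of expressed genes 38.7%. CPSF6 had 47.3 and 80.3 CPM under hypertonic and 137 and 157 CPM under isotonic conditions (-1.20 ± 0.42, adjusted p = 0.338). CPSF7 stood at -1.06 ± 0.38 (adjusted p = 0.352) and NUDT21, the subunit that reads UGUA, at -0.83 ± 0.51 (adjusted p = 0.651). NUDT21 had 21.75 and 46.29 CPM under hypertonic and 72.76 and 48.51 CPM under isotonic conditions, so the replicates numbered 2 were close. In the deposited RPKM its groups overlapped, with 0.665 and 1.961 under hypertonic and 2.675 and 1.628 under isotonic conditions.

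Cleavage factor II, which CPSF and CstF need for the cut, had positive fitted values: PCF11, which also acts in termination, stood at 0.07 ± 0.38 and the RNA kinase CLP1 at 0.44 ± 0.64. Of 4 genes listed for poly(A) tail synthesis, 3 were tested and all were negative, as were 77.2% of expressed genes. The poly(A) polymerases PAPOLG and PAPOLA stood at -0.49 ± 0.44 and -0.42 ± 0.38, and the poly(A) binding protein PABPN1 at -0.26 ± 0.68; TUT1 had too few counts to be tested. Of 7 CPSF-associated and phosphatase genes, 5 were negative, with a median of -0.38. WDR82 and TOX4, partners of the PNUTS phosphatase complex, stood at -1.04 ± 0.43 (adjusted p = 0.415) and -1.10 ± 0.52, and PPP1R10, which encodes PNUTS, at 0.86 ± 0.53. PPP1R10 had 738 and 286 CPM under hypertonic and 214 and 349 CPM under isotonic conditions, so the groups overlapped.

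All 5 termination genes were negative, with a median of -0.70, where 77.2% of expressed genes and 47.6% of all tested genes were negative. SCAF4, an anti-terminator that binds the polymerase tail, stood at -0.80 ± 0.39, XRN2, the exonuclease that degrades the RNA left after cleavage, at -0.72 ± 0.39, and RPRD1B, a polymerase tail binding protein, at -0.70 ± 0.38. Of 6 histone pre-mRNA processing genes, 4 were negative. LSM11, a subunit of the U7 particle that works with CPSF2, CPSF3 and SYMPK, had 15.4 and 10.4 CPM under hypertonic and 4.34 and 4.03 CPM under isotonic conditions (1.62 ± 0.61, adjusted p = 0.373), and its groups did not overlap. ZNF473 stood at -0.86 ± 0.49 and NPAT, an activator of histone genes, at -0.39 ± 0.39.

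None of the 4 paralogs of the members passed the test. CSTF2T, an intronless copy of CSTF2, had 2.45 and 12.7 CPM under hypertonic and 14.2 and 10.7 CPM under isotonic conditions (-0.71 ± 0.78, adjusted p = 0.898). Like CSTF2 it was lowest in hypertonic replicate 1, as were CPSF1, CPSF4, SYMPK and CSTF1. Whether the authors' counting split reads of near-identical stretches between CSTF2 and CSTF2T was not tested. INTS11 and INTS9, the Integrator relatives of CPSF3 and CPSF2, stood at -0.12 ± 0.86 and -0.10 ± 0.42. CPSF4L, a relative of CPSF4, had 58 and 13 counts in the hypertonic and 5 and 7 in the isotonic libraries (2.68 ± 1.04, adjusted p = 0.391), a level set by few reads.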

How the data were processed

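Bru-seq libraries of 2 hypertonic and 2 isotonic samples were analysed, with groups from the labels. Per the submitters' processing notes, the tools were STAR 2.5.3a, Bowtie2 2.3.3, bedtools 2.16.2 and CASAVA 1.8.2 on GRCh38, with no role stated for each. The authors deposited, per gene and strand, an expected count and an RPKM value in tables without a header, and what each column held was inferred from its numbers. What the RPKM was scaled to in each library is not stated. The labels' protocol ties strand specificity to actinomycin D, used for some samples that it does not name, and the sense strand held 88.4 to 93.4% of counts. Bases shared by same-strand genes were pooled by the authors in 48 entries, left out here, with 3.11 to 3.48% of counts. Those counts are part of the total from which the sense share was taken.

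Strand and gene type came from GENCODE 29; 259 genes had no match and were left out. The deposited expected counts, rounded to whole numbers, were tested with edgeR 4.0.16 (R 4.3.3; TMM, default expression filter, quasi-likelihood test, Benjamini-Hochberg at 0.05 over all tested genes). The standard error is the log2 fold change divided by the square root of F. Alternatives were other scalings, no filter, a replicate block, each library left out, DESeq2 1.42.0, limma-voom (limma 3.58.1) and limma on log2(RPKM + 0.1) and log2(RPKM + 1). Antisense counts were scaled by sense library sizes and TMM factors. The script was tested on simulated data drawn with the same dispersion for every gene. That test does not measure power or error at the spread seen between the hypertonic replicates. Levels are of reads without molecular identifiers. A count of 2 libraries per group cannot give an exact permutation p below 0.333.

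The members, gene lists and tests were chosen with earlier results of these data known. Genes named were all members and paralogs, of each other list all where it had 3 or fewer and otherwise the 3 with the smallest p, DCP1A, and same-strand neighbours within 10 kb that were tested (downstream) or at least as high as the member (upstream, of which there were 0). The antisense fit and neighbour alternatives were added after the data were seen, and other neighbours named were chosen by position. Replicate numbers were not taken to pair samples, since the labels do not say so. The transcript end of WDR33 is not reported here.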

Additional observations from a re-analysis of the deposited data

How the results depend on the processing

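Calls over all genes depended on the analysis, and those of the members on 1 library. Against 0 genes called in edgeR, 916 were called with genes kept down to a total count of 1, the replicate number as a block gave 384, DESeq2 gave 731, and leaving out 1 library gave 0 to 4918 (0 without hypertonic replicate 1, 6 without isotonic replicate 1, 4 without isotonic replicate 2, 4918 without hypertonic replicate 2). Members called ranged over 0 to 5 and other pathway genes over 0 to 12 with 1 library left out, and were 0 under the other settings. The members' median ranged from -0.69 to 0.02 with 1 library left out and was -0.37 with the replicate block and 0.01 by total count. The numbers share a deviation correlation of 0.025 and were not taken as pairs. Of 130 settings for the members' sense values, 118 kept sign and side of the threshold, 4 passed it and 8 changed sign (CPSF1 without hypertonic replicate 2 also passed). Of 28 for the antisense values of CPSF1, WDR33, CPSF3 and CSTF3, 21 kept both, 2 passed, 3 lost the call and 2 changed sign. The log2 fold change of SYMPK was 0.23 by total count, 0.07 by upper quartile and -1.15 to 0.47 with 1 library left out, including 0.00 without isotonic replicate 2. That of CPSF1 was -0.34 with the replicate block, -0.32 in limma-voom, -0.17 in limma on log2(RPKM + 0.1) and -1.76 to 1.02 with 1 library left out. Antisense entries called were 0 with their own TMM factors, 3105 by total count, 1530 with the replicate block and 0 to 5115 with 1 library left out. The antisense value of CPSF3 was 2.00 with own TMM factors and 2.19 to 3.99 with 1 library left out, and that of CSTF3 was -0.93 with own TMM factors and -0.06 to 0.63 with 1 library left out. A group left with 1 library is assumed to vary like the other. The causes were not tested. CPSF1, CPSF4 and CSTF2 had 123, 130 and 147 counts in hypertonic replicate 1, which limits their precision there.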
